A study of Pimephales promelas with 51 samples.

Results

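Larvae exposed to the highest concentration of fluticasone propionate, labelled 0.19 µM, were compared with larvae exposed to the 3 lowest concentrations of the same compound, labelled 0.003, 0.006 and 0.01 µM. The comparison leaves out the vehicle: 3 libraries at 0.19 µM stood against 9 libraries at the low concentrations, which is 12 of the 51 libraries of the study, and they were chosen by their labelled concentration alone. All were fathead minnows (Pimephales promelas, a freshwater fish that serves as a test species for pollutants) of the strain GLTED-Duluth-wt, labelled 5 to 6 days post fertilisation, kept in still water with the compound for 24 h and sampled as whole bodies of undetermined sex. Their nominal concentration was 0.190909 µM in the highest group, against 0.00344, 0.005982 and 0.010691 µM in the low groups. The concentration measured was 0.0597 µM in the highest group and 0.0019, 0.0028 and 0.0046 µM in the low ones, so the highest group held 31.4, 21.3 and 13.0 times the measured concentration of each. The other libraries of the study are 12 at 4 middle concentrations, 24 from larvae given dexamethasone and 3 from larvae given the solvent dimethyl sulfoxide (DMSO).

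Fluticasone propionate is a synthetic corticosteroid that binds the glucocorticoid receptor. In vertebrates this receptor rests in the cytoplasm with heat shock proteins and co-chaperones, moves to the nucleus when it binds a steroid, and switches on genes such as fkbp5, klf9 and tsc22d3, several of which damp the hormone signal or inflammation. In fish its natural ligand is cortisol, and it takes part in the control of nitrogen and energy metabolism, salt balance and growth.

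Messenger RNA was counted from its 3′ ends, so that a count is a number of reads per gene. The 12 libraries held 1395115 to 2097358 reads assigned to genes. The share of reads assigned to no gene was 22.6, 25.7 and 22.9% at 0.19 µM, against 24.2 to 26.5% in the low libraries. The RNA came from pooled homogenates. Whether the replicates were separate pools of larvae is not stated, and the tests see the spread among libraries, part of which may be technical. Markers of 16 tissues and cell types were looked up to check the whole-body label: markers of muscle, liver, pancreas, gut, retina, lens, neurons, skin, ionocytes, cartilage, heart and kidney were all read, as were low levels of blood cell markers. Markers at 0 in all 12 libraries were cryaba of the lens, sox2 and sox3 of neural progenitors, the globin genes hbba1, hbba2, hbaa2, hbae1.1 and hbae3, and lyz of myeloid cells. The summed level of each of the 16 marker lists overlapped between the groups.

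Of 17182 genes tested, 173 differed between 0.19 µM and the low concentrations at an adjusted p under 0.05 (edgeR's quasi-likelihood test with Benjamini-Hochberg adjustment), which is 1.01% and is what "called" means here. At 0.19 µM 129 of them were higher (0.751%) and 44 lower (0.256%). In these whole bodies, fewer cells of a type and less RNA per cell cannot be told apart. Most changes were small: the median absolute log2 fold change of called genes was 0.58, and 15 genes rose and 7 fell by 2-fold or more. In 138 of the 173 the groups did not overlap, with all 3 libraries at 0.19 µM above all 9 low libraries in 106 genes and below them in 32. Over all tested genes the same was seen above in 309 (1.8%) and below in 182 (1.06%).

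**Figure D1:**
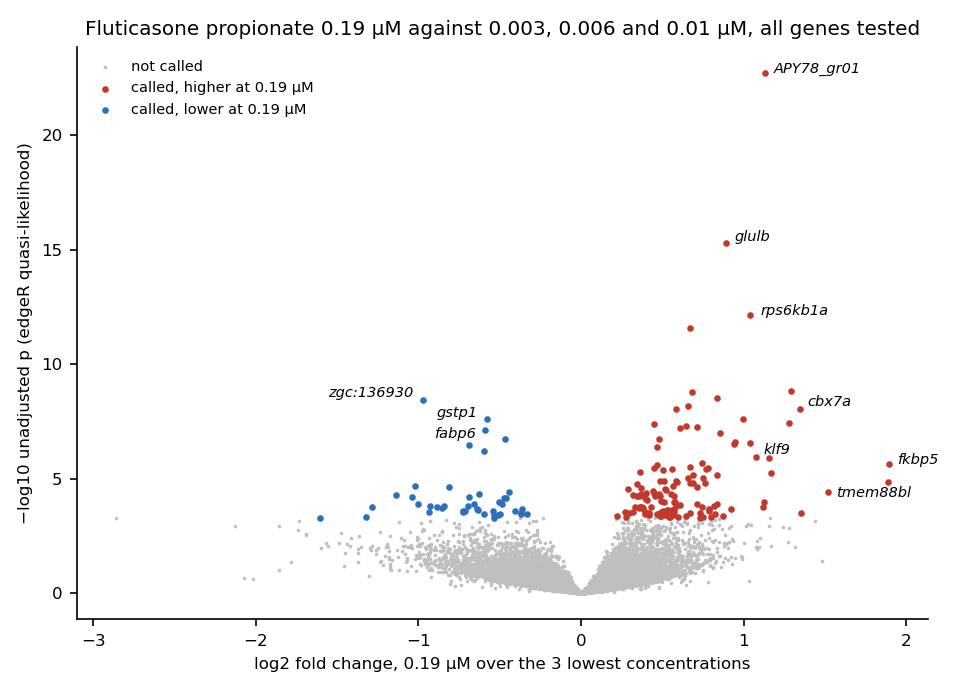
Log2 fold change of each of the 17182 tested genes at 0.19 µM over the mean of the 3 lowest concentrations (x axis) against the −log10 of its unadjusted p (y axis), with 129 genes called higher in red, 44 called lower in blue and the rest in grey. Called rises outnumber called falls and reach a log2 fold change of 1.89, for fkbp5.

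The number of calls depended on single libraries at 0.19 µM. It was 96 without replicate A, 81 without B and 58 without C, and 69 without the 3 libraries at 0.003 µM. With the share of reads assigned to no gene as a covariate it was 128, of which 54.7% were higher, against 74.6% of the 173, and 74 of the 173 were among them. Without the filter on low counts it was 323.

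Some known targets of the glucocorticoid receptor rose, and fkbp5 had the largest log2 fold change among them. Of 32 genes on a list of such targets 29 were found and tested. Of these 7 were called higher, none lower and 22 were not called, against 0.751% higher and 0.256% lower over all tested genes. The median log2 fold change of the 29 was 0.36, against −0.006 over all tested genes. This list and those below were chosen with earlier results of these data known, so their counts and medians are not independent evidence. The largest change among all called genes was that of fkbp5, whose product is a co-chaperone that in mammals lowers the receptor's affinity for its hormone. It had 329.9, 354 and 400.3 CPM (counts per 1000000 counted reads) in the libraries at 0.19 µM, against a lowest value of 73.0, a median of 91.2 and a highest value of 149 CPM in the 9 low libraries. The lowest library at 0.19 µM thus lay well above the highest low library, which was replicate B at 0.01 µM. The log2 fold change was 1.89 ± 0.19 with 3 libraries against 9 (adjusted p = 0.00126). After every fold change or slope here, ± is a standard error (SE), the absolute value divided by the square root of the test's F statistic.

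The transcription factor klf9, induced by glucocorticoids in fish and mammals, had 49.1, 56.4 and 62.4 CPM at 0.19 µM and 13.7, 26.0 and 39.9 CPM as the lowest, median and highest low library. Its groups did not overlap, and it rose by 1.07 ± 0.18 (adjusted p = 0.000666). Levels of tsc22d3, which encodes the glucocorticoid-induced leucine zipper protein, were 192, 160.0 and 159 CPM at 0.19 µM, against 102, 124 and 139 CPM in the low libraries. It too was higher in all 3 libraries than in any low one, by a smaller 0.44 ± 0.09 (adjusted p = 0.00982). The kinase gene sgk2b, of the serum and glucocorticoid regulated kinase family, had 23.4, 25.3 and 33.6 CPM, against 8.55, 12.1 and 17.1 CPM, a rise of 1.16 ± 0.20 with no overlap.

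The other 3 called targets overlapped between the groups. The mTOR inhibitor gene ddit4 had 68.4, 44.9 and 58.1 CPM at 0.19 µM, against 22.7, 32.9 and 54.1 CPM in the low libraries (0.82 ± 0.18, adjusted p = 0.0273). Of the low libraries, replicate C at 0.006 µM alone reached the level of those at 0.19 µM. The phosphatidate phosphatase gene lpin1a had 24.6, 21.9 and 17.6 CPM, against 2.85, 10.4 and 21.4 CPM, and rose by 1.12 ± 0.26 (adjusted p = 0.0276). The forkhead transcription factor foxo3b rose by 0.37 ± 0.09. Among the 22 targets that were not called, log2 fold changes ran between −0.19 for nfkbiaa and 0.83 for pdk2b. They were 0.39 ± 0.11 for the transcription factor cebpd (adjusted p = 0.0835), 0.34 ± 0.10 for klf15, 0.35 ± 0.10 for zbtb16a, 0.57 ± 0.17 for the clock gene per1a and 0.60 ± 0.28 for the gluconeogenic enzyme pck1. The kinase gene sgk1 had 63.9 ± 15.9 CPM at 0.19 µM, against 63.1 ± 14.1 CPM, and per1b 86.9 ± 8.18 against 85.4 ± 12.5 CPM (SD, n = 3 and 9). Both were thus near the same mean in the 2 sets of libraries, with log2 fold changes of 0.03 ± 0.17 and 0.03 ± 0.12.

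The gene of the receptor itself was not called. The glucocorticoid receptor gene nr3c1 had 48.6, 44.9 and 68.2 CPM at 0.19 µM, against 53.7, 61.3 and 67.9 CPM in the low libraries, a log2 fold change of −0.16 ± 0.13 with an adjusted p = 0.759. None of the 11 tested genes of the corticosteroid receptors and stress axis was called by edgeR or DESeq2, nor any of the 17 receptor chaperones and heat shock genes, with 4 in each list at an unadjusted p under 0.05. Calls among the targets rested on single libraries in part: the count of 7 was 3 without replicate A or C of the 0.19 µM group, 5 without B and 3 with the share of reads assigned to no gene as a covariate. Without C the call of sgk2b was lost (adjusted p = 0.0593), and without A that of tsc22d3 (adjusted p = 0.164). That of ddit4 was lost without A (adjusted p = 0.194) or C (adjusted p = 0.165). Without A, B or C in turn, lpin1a (adjusted p = 0.172, 0.132 and 0.0654) and foxo3b (adjusted p = 0.275, 0.0536 and 0.0894) were not called. Calls of fkbp5 and klf9 were kept under every alternative tried.

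**Figure D2:**
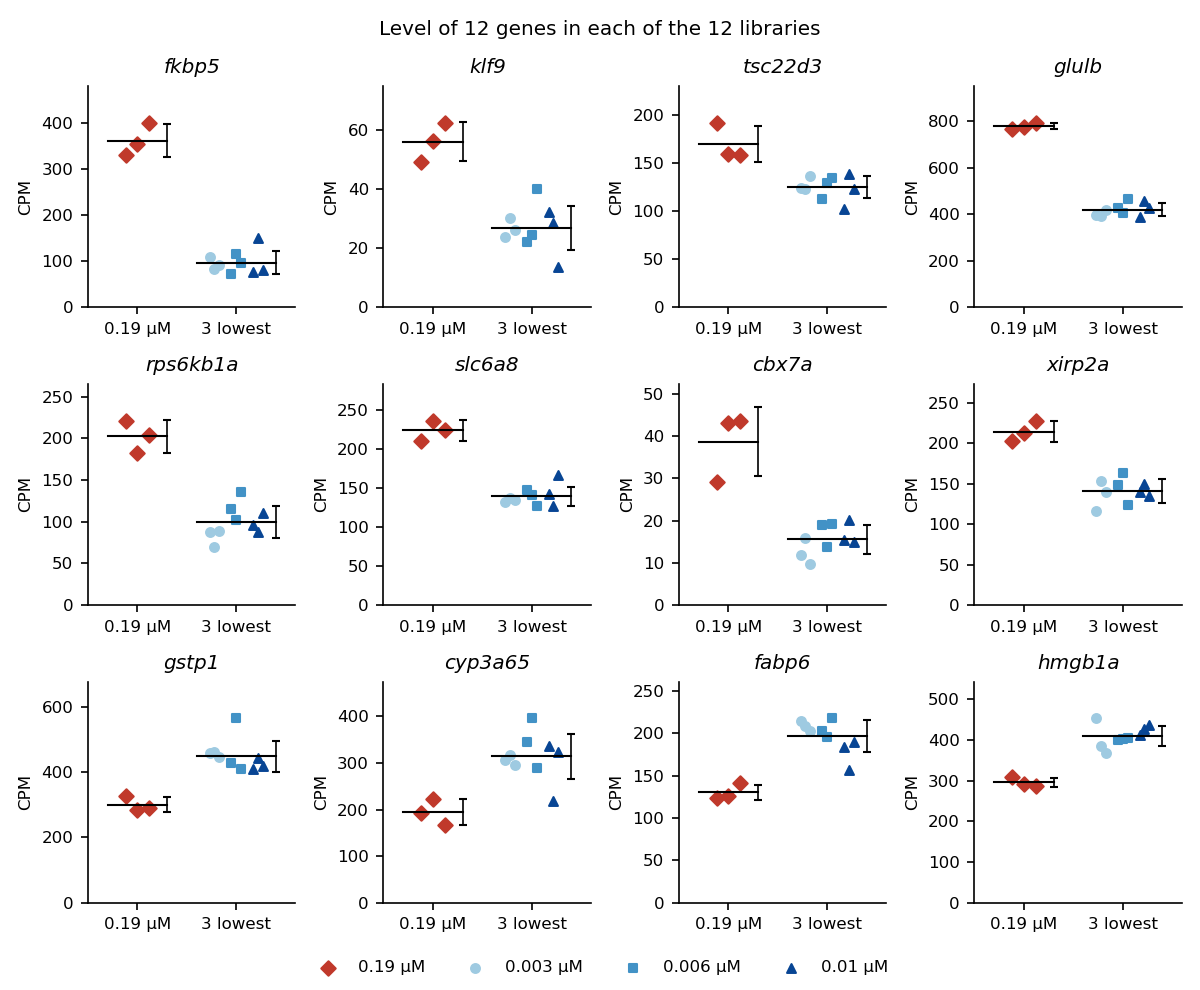
Level in CPM (y axis, from 0) of 12 genes in each library at 0.19 µM (red diamonds, left) and at 0.003, 0.006 and 0.01 µM (blue circles, squares and triangles, right), with a line at each mean and a bar of 1 SD. In 11 of the 12 genes the 2 sets do not overlap, and in cyp3a65 the lowest low library, at 219 CPM, lies just under the highest library at 0.19 µM, at 223 CPM. The genes were picked for display, and no overlap was part of the rule that named many of them. Over all 17182 tested genes 309 lay above and 182 below without overlap.

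Genes for the making of glutamine rose, and a gene for its breakdown was called close to the threshold. Glutamine synthetase joins ammonia to glutamate and is a classic glucocorticoid-induced enzyme. Of 18 tested genes of ammonia and glutamine handling, 3 were called higher and none lower, against 0.751% and 0.256% over all genes. Their median log2 fold change was 0.13. The glutamine synthetase gene glulb had 768, 776 and 793 CPM at 0.19 µM, against 388, 419 and 467 CPM as the lowest, median and highest of the low libraries. Its 3 libraries at 0.19 µM lay within a few percent of each other, all far above the low ones. The rise of 0.89 ± 0.06 had the smallest p of all genes with a symbol (adjusted p = 4.36e-12).

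The second synthetase gene, glula, had 295, 315 and 344 CPM, against 199, 232 and 274 CPM, also with no overlap, and rose by 0.45 ± 0.08 (adjusted p = 0.00162). The level of the glutaminase gene gls2a, whose product releases ammonia from glutamine, was 32.2, 40.3 and 30.4 CPM, against 11.2, 20.8 and 28.3 CPM. This rise of 0.75 ± 0.19 was close to the threshold (adjusted p = 0.0486). It kept its call in 8 of 26 alternatives, and lost it by DESeq2 (adjusted p = 0.0758) and in edgeR with replicate as a block (adjusted p = 0.0621). Reads that aligned to several places were not counted, and how reads were shared between close copies such as glula and glulb is not known. Among members that were not called, the ammonium transporters had values of opposite sign, 0.89 ± 0.28 for rhcga and −0.46 ± 0.18 for rhcgb. Leaving out replicate C at 0.19 µM ended the call of glula (adjusted p = 0.0678) and that of gls2a (adjusted p = 0.115), which was also lost without any of 9 other libraries, and left glulb called. With all 24 fluticasone propionate libraries sharing 1 estimate of the spread, glula was not called either (adjusted p = 0.266).

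A kinase that promotes growth rose, as did 3 genes whose products restrain it. The list of mTOR and growth control genes had 4 of 39 tested members called higher and none lower, against 0.751% and 0.256% over all genes. Its median was 0.14. mTOR is the kinase that sets protein synthesis by nutrient and growth factor supply. The S6 kinase gene rps6kb1a, whose product acts downstream of mTOR on ribosomes, had 221, 182 and 204 CPM at 0.19 µM and 70.0, 96.1 and 136 CPM as the lowest, median and highest low library. Its groups did not overlap (1.04 ± 0.10, adjusted p = 4.14e-09). Its paralogue rps6kb1b had a log2 fold change of 0.10 ± 0.15 and was not called.

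The other 3 called genes were ddit4 and foxo3b, described above, and eif4ebp3l, whose product is a binding protein that represses translation. The level of eif4ebp3l was 243, 177 and 227 CPM at 0.19 µM, against 136, 158 and 178 CPM. Replicate B at 0.19 µM fell just inside the range of the low libraries, and the rise was 0.50 ± 0.09 (adjusted p = 0.00176). Values for mtor itself and for igf1 were −0.04 ± 0.09 and −0.40 ± 0.27, neither of them called. Of these 4 genes rps6kb1a alone was called without replicate A or C at 0.19 µM. With all 24 fluticasone propionate libraries sharing 1 estimate of the spread, ddit4 (adjusted p = 0.439) and eif4ebp3l (adjusted p = 0.0524) were not called.

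Some genes of creatine handling and of stressed muscle rose. Creatine carries high-energy phosphate in muscle and brain. Its transporter gene slc6a8 had 211, 237 and 225 CPM at 0.19 µM, against 127, 137 and 167 CPM in the low libraries, with no overlap (0.68 ± 0.08, adjusted p = 4.48e-06). The gene for the last enzyme of creatine synthesis, gamt, rose by 0.39 ± 0.10, with 161 ± 14.8 CPM against 123 ± 14.3 CPM, and ckmt2b, a mitochondrial creatine kinase, by 1.35 ± 0.33, with 13.9 ± 6.66 against 5.70 ± 2.75 CPM (SD, n = 3 and 9). These were 3 of 10 tested members, against 0.751% called higher over all genes, none was lower, and the median was 0.01. The cytosolic muscle creatine kinases ckma and ckmb had −0.02 ± 0.06 and 0.04 ± 0.10. Without replicate C at 0.19 µM slc6a8 alone of the 3 was called, and the adjusted p was 0.306 for gamt and 0.41 for ckmt2b. With all 24 fluticasone propionate libraries sharing 1 estimate of the spread it was 0.369 for gamt and 0.296 for ckmt2b.

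Of 29 tested genes of the sarcomere and of muscle stress, 4 were called higher and none lower, against 0.751% and 0.256% over all genes. Their median was 0.06. The actin-binding muscle gene xirp2a had 204, 212 and 228 CPM at 0.19 µM, against 116, 139.7 and 163 CPM, and rose by 0.61 ± 0.09 with no overlap (adjusted p = 6.13e-05). Its paralogue xirp2b had 169, 187 and 164 CPM, against 114, 134 and 147 CPM, a smaller rise of 0.37 ± 0.09, again with no overlap. The titin gene ttn.1, the spring of the sarcomere, rose by 0.35 ± 0.07, with 3588 ± 289.9 CPM at 0.19 µM, against 2821 ± 268 CPM in the low libraries (SD, n = 3 and 9), and the muscle ankyrin repeat gene ankrd1b by 0.84 ± 0.18. The actin gene acta1a had −0.42 ± 0.19 and the myosin light chain gene mylpfa −0.02 ± 0.06, neither of them called, and the summed skeletal muscle markers were 7749 to 8414 CPM at 0.19 µM, against 7688 to 9296 CPM. Without replicate B or C at 0.19 µM, 1 of the 4 calls in this list was left and xirp2a kept its own.

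Genes of lipid handling and of the daily clock gave 3 calls each, all higher, while 0.751% of all tested genes were called higher. Of 30 tested genes of lipid storage and lipolysis with a median of 0.06, those called were lpin1a, enpp2l and pnpla3. The call of lpin1a, as given above, was lost without any single library at 0.19 µM. The gene enpp2l, which the reference table names after autotaxin (enpp2), had 215, 186 and 210.0 CPM at 0.19 µM, against 112, 129.6 and 165 CPM, and rose by 0.66 ± 0.09 with no overlap (adjusted p = 1.22e-05). The gene of a lipid droplet acyl hydrolase, pnpla3, had 67.3, 54.1 and 73.6 CPM, against 34.2, 39.2 and 45.6 CPM (0.75 ± 0.13, adjusted p = 0.00114). All 3 of its libraries at 0.19 µM were above every low one.

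Among 30 tested clock genes, with a median of 0.12, npas2 rose by 0.67 ± 0.12, tefb by 0.45 ± 0.10 and hlfa by 0.36 ± 0.07. The protein of npas2 is the partner of Bmal that can replace Clock, and tefb and hlfa encode transcription factors that carry clock output. Their levels at 0.19 µM were 70.8, 74.8 and 83.7 CPM for npas2, against 39.8, 49.1 and 57.6 CPM. For hlfa they were 699, 714 and 621 CPM, against 433, 529.5 and 611 CPM. Neither overlapped, but hlfa was lower at 0.003 µM (mean 474 CPM) than at 0.006 and 0.01 µM (556 and 554 CPM), and its call was lost without the 0.003 µM group (adjusted p = 0.0896). Without replicate C at 0.19 µM the calls of npas2 (adjusted p = 0.0566) and pnpla3 (adjusted p = 0.0593) were lost. That of tefb was lost without A (adjusted p = 0.105) or B (adjusted p = 0.0536). The core clock genes arntl1a and clocka had −0.05 ± 0.25 and 0.17 ± 0.15 and were not called.

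Several enzymes that clear foreign compounds fell. Of 20 tested detoxification genes, 4 were called lower and 2 higher, against 0.256% and 0.751% over all genes. Their median log2 fold change was −0.38. The glutathione transferase gene gstp1 had 327, 284 and 291 CPM at 0.19 µM, against 409.7, 442 and 564 CPM in the low libraries. All 3 libraries at 0.19 µM lay below the lowest low one, and gstp1 fell by 0.58 on the log2 scale (SE 0.08, adjusted p = 3.28e-05). The cytochrome gene cyp3a65, a member of the CYP3A family that oxidises steroids and drugs, had 193, 223 and 168 CPM, against 219, 317 and 395 CPM (−0.69 ± 0.13, adjusted p = 0.0141). A single low library, replicate B at 0.01 µM, dipped into the range of those at 0.19 µM.

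The carboxylesterase gene ces3 (33.3 ± 8.03 CPM at 0.19 µM, against 54.8 ± 9.99 CPM; SD, n = 3 and 9) fell by 0.72 on the log2 scale and the sulfotransferase gene sult6b1 by 0.50, both without overlap. The remaining members were named to complete the count. The 2 rises were those of cyp27c1, which in zebrafish converts vitamin A1 to vitamin A2, and of ahr2, an aryl hydrocarbon receptor. For cyp27c1 the levels were 81.9, 101 and 98.1 CPM, against 35.4, 42.9 and 70.7 CPM (0.94 ± 0.14, adjusted p = 0.000189), and for ahr2 80.1, 81.7 and 81.6 CPM, against 45.9, 58.4 and 77.2 CPM (0.50 ± 0.12). The steroid and drug sensor nr1i2, which in mammals switches on CYP3A genes, had 0.08 ± 0.25 and was not called. Without replicate C at 0.19 µM 2 of the 6 calls were left. The call of cyp3a65 was lost without A (adjusted p = 0.104) or C (adjusted p = 0.0715), while gstp1 and cyp27c1 stayed called in all alternatives.

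A few gut and liver genes fell as well, while 0.256% of all tested genes were called lower. The gene of the ileal bile acid binding protein, fabp6, had 124, 126 and 141 CPM at 0.19 µM, against 157, 203 and 217 CPM, a fall of 0.59 on the log2 scale with no overlap (SE 0.09, adjusted p = 6.76e-05). Apolipoprotein M, apom, had 118, 124 and 141 CPM, against 152, 165 and 179 CPM, and fell by 0.36. These were the called members among 20 tested genes of gut lipid and bile acid handling, whose median was −0.12. The summed markers of gut epithelium, which include fabp6, were 765 to 807 CPM at 0.19 µM, against 789 to 904 CPM in the low libraries, and their part in the fall of fabp6 was not tested. Of 33 tested liver plasma, complement and coagulation genes 1 fell, the fetuin gene ahsg1 (35.2 ± 3.32 CPM against 55.7 ± 9.68 CPM; SD, n = 3 and 9), and the call was lost without any one of the 3 libraries at 0.19 µM (adjusted p = 0.0564, 0.109 and 0.201 without A, B and C). The summed liver markers were 5155 to 6488 CPM at 0.19 µM, against 5556 to 7261 CPM. The call of apom was lost without any 1 of 6 libraries, A, B or C at 0.19 µM, A or B at 0.003 µM or C at 0.01 µM (adjusted p = 0.0531 to 0.233).

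Most genes of cell division had a lower level at 0.19 µM, and 4 of them fell. Of 65 tested genes of the cell cycle and DNA replication, 60 had a negative log2 fold change, against 8754 of 17182 over all genes. In the list 4 were called lower and none higher, against 0.256% and 0.751% over all genes, and the median was −0.54. The called ones were hmgb1a, a chromatin protein of dividing and other cells, nusap1, which bundles spindle microtubules, top2a, the topoisomerase that disentangles chromosomes, and ccnb1, cyclin B1. The level of hmgb1a was 308, 292 and 287 CPM at 0.19 µM, against 368, 404 and 452 CPM (−0.47 ± 0.07, adjusted p = 0.000146). For nusap1 it was 14.6, 11.5 and 12.3 CPM, against 15.9, 28.0 and 35.3 CPM (−1.02 ± 0.21, adjusted p = 0.00658). Both had all 3 libraries at 0.19 µM below all low ones, as did top2a (−0.49 ± 0.11) and ccnb1 (−1.32 ± 0.34).

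The libraries at low concentration varied widely in these genes. The replication clamp gene pcna had 93.0, 72.5 and 76.8 CPM at 0.19 µM, against 67.5, 110.1 and 184 CPM, so that both the lowest and the highest of the 12 libraries were at 0.006 µM. Its log2 fold change of −0.54 ± 0.32 was not called. The proliferation marker mki67 had 36.9, 25.9 and 32.5 CPM, against 37.0, 44.5 and 72.2 CPM, without overlap and without a call (−0.59 ± 0.18, adjusted p = 0.13). Without replicate B or C at 0.19 µM 1 of the 4 calls was left, that of hmgb1a, kept in every alternative. Without A the calls of top2a (adjusted p = 0.194) and ccnb1 (adjusted p = 0.0596) were lost. In all, ccnb1 lost its call in 14 of 25 alternatives, top2a in 5 of 26 and nusap1 in 3 of 26. Without the filter on low counts 14 members were called. At an unadjusted p under 0.05 stood 30 of the 65, against 1790 of 17182 over all genes.

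A further 2 falls were in genes of photoreceptors, opn1sw1, a short-wave cone opsin, by 0.63 on the log2 scale and the calcium sensor rcvrn2 by 0.37. Of 13 tested retina markers the other 11 were not called, and over all tested genes 0.256% were called lower. The sum of the retina markers was 2969 to 3237 CPM at 0.19 µM, against 2762 to 3209 CPM. The call of opn1sw1 was lost without replicate A (adjusted p = 0.0922) or B (adjusted p = 0.132) of the 0.19 µM group, and that of rcvrn2 without any of 9 libraries. With all 24 fluticasone propionate libraries sharing 1 estimate of the spread, opn1sw1 had an adjusted p = 0.462.

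Several of the largest or most certain changes belong to no list. The rule that named them, and the rises and falls with a symbol in the next paragraphs, asked for no overlap between the groups. The polycomb gene cbx7a, whose product takes part in gene silencing, had 29.3, 43.2 and 43.7 CPM at 0.19 µM, against 9.81, 15.3 and 20.2 CPM, and rose by 1.34 ± 0.18 with no overlap (adjusted p = 1.46e-05). The gene mgarpb, named for a glutamic acid-rich protein of mitochondria, had 64.4, 57.0 and 58.6 CPM, against a median of 30.2 and a highest value of 37.0 CPM (adjusted p = 3.28e-05), and the kinase gene stk35 116, 127 and 124 CPM, against 51.6, 75.4 and 81.9 CPM (0.83 ± 0.11). Each had its 3 libraries at 0.19 µM above all low ones.

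Further rises without overlap were those of the neutral amino acid transporter slc7a8a (0.65 ± 0.09), the mitochondrial phosphatase pptc7a (0.71 ± 0.10), the reticulon rtn3 (0.45 ± 0.06), tmem88bl (1.52 ± 0.32) and, both uncharacterised, si:dkey-5i3.5 (1.28 ± 0.18) and si:ch211-217a12.1 (1.29 ± 0.16). Counts of tmem88bl were low, 8.78, 17.8 and 13.3 CPM at 0.19 µM, against a median of 5.03 CPM, and its call was lost without replicate B (adjusted p = 0.185) or C (adjusted p = 0.0715) of the 0.19 µM group. For rtn3 the size depended on which low group was used, with 0.68 against 0.003 µM, 0.35 against 0.006 µM and 0.32 against 0.01 µM.

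The fall with the smallest p was that of zgc:136930, with 46.8, 38.0 and 44.8 CPM at 0.19 µM, against 71.7, 82.5 and 97.4 CPM, with no overlap (−0.97 ± 0.13, adjusted p = 7.56e-06). Other falls without overlap were those of si:dkey-11k2.7 (−1.28 ± 0.27), si:dkey-183i3.5 (−0.60 ± 0.10), the DNA damage histone h2ax (−1.04 ± 0.23), the matrix proteoglycan aspn (10.1 ± 0.960 CPM at 0.19 µM, against 20.3 ± 4.23 CPM; SD, n = 3 and 9), the dehydrogenase dhdh.1 (−0.81 ± 0.16), monoamine oxidase mao (−0.50 ± 0.12), the lipid peroxide reductase gpx4a (−0.46 ± 0.10) and calmodulin calm3a (−0.47 ± 0.11). The 3 libraries at 0.19 µM had 15.8, 16.1 and 16.5 CPM of si:dkey-11k2.7, against a lowest value of 18.5 and a median of 36.6 CPM. Apart from zgc:136930, each of these falls lost its call in at least 1 alternative, among them h2ax without replicate B (adjusted p = 0.1) and gpx4a without A (adjusted p = 0.135) of the 0.19 µM group.

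The smallest p of all genes was that of APY78_gr01, an identifier that the reference table gives no name, and which was singled out after its values were seen. It had 26046, 27691 and 26062 CPM at 0.19 µM, against 10732, 12457 and 13097 CPM in the low libraries, and rose by 1.13 ± 0.05 (adjusted p = 3.22e-19). This 1 gene held 2.49 to 2.72% of all gene reads at 0.19 µM, against 1.06 to 1.30% in the low libraries. Another unnamed identifier of the same series, APY78_gr02, rose by 0.67 ± 0.06 with no overlap (adjusted p = 1.14e-08). With all genes whose identifier starts with APY78_ left out before scaling, 173 genes were called, 170 of them the same.

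A further 8 lists had no member called by edgeR, and DESeq2 called 1 gene in them, of cholesterol synthesis. The lists were gluconeogenesis and amino acid catabolism (29 tested, 3 at an unadjusted p under 0.05, median 0.13), glycolysis and its regulators (34, 8, 0.16), immediate early genes (28, 8, 0.28), cholesterol synthesis (14, 2, −0.06), extracellular matrix (46, 11, −0.13), interferon response (17, 4, −0.03), inflammation and NF-kB (21, 2, 0.002) and the respiratory chain (40, 4, −0.01). Of muscle proteolysis and autophagy genes 1 of 23 was called, against 1.01% of all tested genes, namely foxo3b, which is in 3 lists. In the matrix list 36 of 46 members had a negative log2 fold change, against 8754 of 17182 over all genes.

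**Figure D3:**
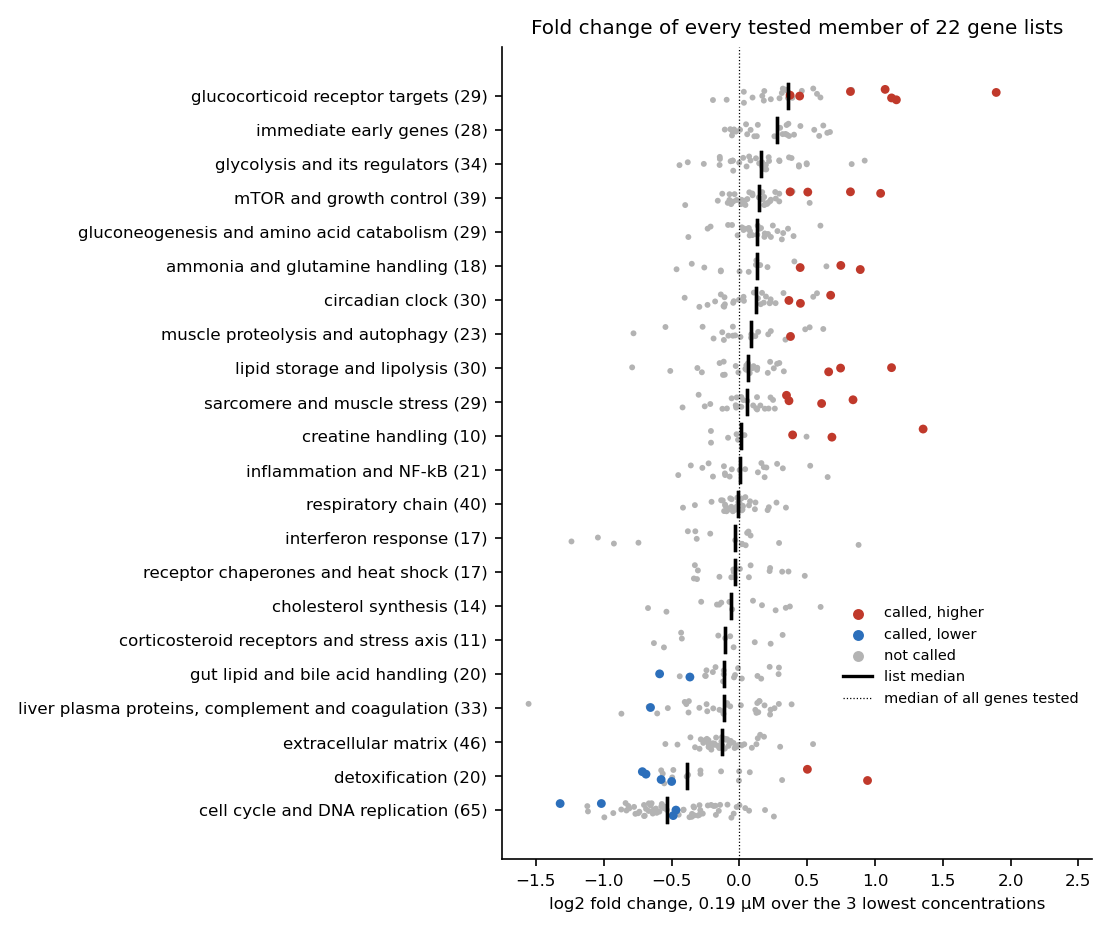
Log2 fold change at 0.19 µM over the 3 lowest concentrations (x axis) of each tested member of 22 gene lists (rows, number tested in brackets), with called members in red or blue, others in grey, the list median as a black bar and the median of all genes as a dotted line. Receptor targets have the highest median, 0.36, and cell cycle genes the lowest, −0.54.

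The 9 low libraries served as 1 background, and no gene was called as different among the 3 low concentrations (0 of 17182, or 0%, in edgeR and also in DESeq2; 699 had an unadjusted p under 0.05 and the smallest adjusted p was 0.867). Without the filter on low counts 9 genes were called there. Set against the 3 DMSO libraries, the low libraries gave 0 calls of 17094 genes (0%) in both tools as well, with 582 at an unadjusted p under 0.05. The level of fkbp5 was 97.1 ± 24.5 CPM in the low libraries, against 128 ± 24.7 CPM in DMSO, and that of klf9 was 26.8 ± 7.29 CPM, against 35.9 ± 7.19 CPM (SD, n = 9 and 3). For glulb the values were 420.1 ± 27.6 CPM, against 388 ± 26.4 CPM, and for gstp1 448 ± 47.2 CPM, against 453 ± 24.9 CPM. The mean of fkbp5 and of klf9 was lower in the low libraries than in DMSO, and none of the 4 genes was called. In the separate contrasts, 88 genes were called at 0.19 µM against 0.003 µM (0.512%), 37 against 0.006 µM (0.215%) and 54 against 0.01 µM (0.314%). All 3 contrasts share the libraries at 0.19 µM. In every one of them 27 genes were called, which include fkbp5, glulb, rps6kb1a, slc6a8, cbx7a, xirp2a, gstp1 and hmgb1a. The log2 fold change of fkbp5 was 1.94, 1.92 and 1.83 against 0.003, 0.006 and 0.01 µM (adjusted p = 0.0118, 0.0219 and 0.018). That of rps6kb1a was 1.30, 0.79 and 1.04 (adjusted p = 2.34e-08, 0.000508 and 2.15e-06).

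The 4 middle concentrations, 0.019, 0.034, 0.06 and 0.1 µM, were read in 12 libraries that the comparison did not use. There a trend on log10 of the nominal concentration was called in 17 of 16472 genes (0.103%), 15 rising (0.0911%) and 2 falling (0.0121%). Of the 129 genes called higher at 0.19 µM, 128 were measured in these libraries, 121 of them (94.5%) had a rising slope and 9 were called rising. Of the 44 called lower, 38 (86.4%) had a falling slope and 1 was called falling. Over all tested genes the slope and the fold change had the same sign in 56.6%. The mean share of reads assigned to no gene fell over these concentrations, with 29.1 ± 3.41, 27.1 ± 3.10, 26.7 ± 2.25 and 25.5 ± 1.42% in rising order (SD, n = 3 each). Replicate A had no steady fall, with 25.4, 23.6, 25.0 and 24.7%. With that share as a covariate, an alternative added after seeing the data, 122 of 128 genes had a rising and 41 of 44 a falling slope. It called 10 genes rising and 10 falling, which include 9 of the 17 and not fkbp5. The median slope per 10-fold of concentration was 0.42 for the genes called higher and −0.33 for those called lower, against −0.008 over all genes.

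The 10 genes called in both sets of libraries included fkbp5 with a slope of 2.12 ± 0.31 (adjusted p = 0.0205), glulb with 0.83 ± 0.14, rps6kb1a with 1.02 ± 0.18, slc7a8a with 0.77 ± 0.15 and, falling, cyp3a65 with −0.78 ± 0.14 (adjusted p = 0.00408). The other 5, all rising, were chac1, syngr2b, APY78_gr01, APY78_gr02 and a further gene without a name. The creatine transporter slc6a8 had a slope of 0.08 ± 0.15 there and was not called, and its means were 153, 156, 158 and 159 CPM, all under the 224 ± 13.0 CPM (SD, n = 3) at 0.19 µM. Slopes were 1.19 ± 0.30 for klf9, 0.77 ± 0.40 for cbx7a, 0.63 ± 0.15 for xirp2a and −0.61 ± 0.14 for gstp1, with adjusted p = 0.0956, 0.671, 0.0548 and 0.0548, none of them called. Means of fkbp5 over the same series were 74.3, 123, 140.5 and 239.7 CPM. Over the lists, 25 of 28 receptor targets had a rising slope with a median of 0.73, and 52 of 64 cell cycle genes a falling one with a median of −0.30. All 10 creatine genes and 27 of 29 sarcomere and muscle stress genes had a rising slope, with medians of 0.28 and 0.15. Slopes also rose in 36 of 40 respiratory chain genes, a list without calls, and in 8013 of 16285 genes over all. In the main comparison 5 of the 10 creatine genes and 19 of the 29 muscle genes had a positive log2 fold change. The number of called slopes rested on the group at 0.1 µM, without which 1 gene was called, and ranged between 8 and 35 with single libraries left out, the lowest without replicate C at 0.019 µM and the highest without C at 0.034 µM.

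**Figure D4:**
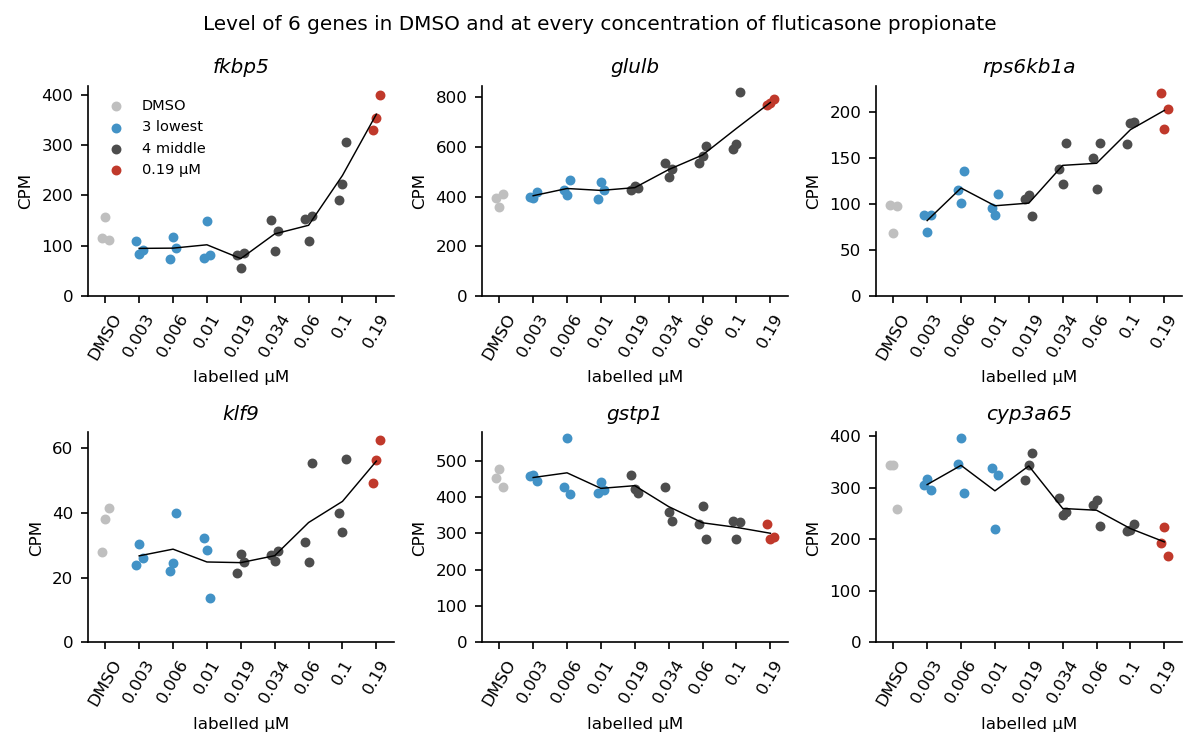
Level in CPM (y axis, from 0) of 6 genes in DMSO and at the 8 labelled concentrations of fluticasone propionate in rising order (x axis, not to scale), with 1 point per library, 3 per group, and a line through the means of the treated groups. The means of fkbp5 lie between 74.3 and 102 CPM at 0.003 to 0.019 µM and reach 361 CPM at 0.19 µM, and those of gstp1 end at 300.4 CPM.

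The called genes were also set against DMSO group by group. The median log2 ratio to DMSO of the 129 genes called higher was −0.10, 0.01 and −0.04 at 0.003, 0.006 and 0.01 µM and 0.52 at 0.19 µM, where the choice of genes fixes it. At 0.019, 0.034, 0.06 and 0.1 µM, which did not enter the choice, the median was −0.07, 0.09, 0.15 and 0.26. For the 44 genes called lower it was 0.10, 0.05 and 0.01 at 0.003, 0.006 and 0.01 µM, and −0.57 at 0.19 µM. At 0.003 µM 35 of the 44 lay above DMSO, against 8659 of 17182 over all genes. The low libraries entered the choice as well, which favours values there away from those at 0.19 µM. At the 4 middle concentrations the median of the 44 genes was −0.10, −0.18, −0.29 and −0.47. At 0.019 µM it thus lay about as far from DMSO as at 0.003 µM. At 0.1 µM 118 of the 129 lay above DMSO and 42 of the 44 below it, against 8470 above and 8712 below over all 17182 genes.

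**Figure D5:**
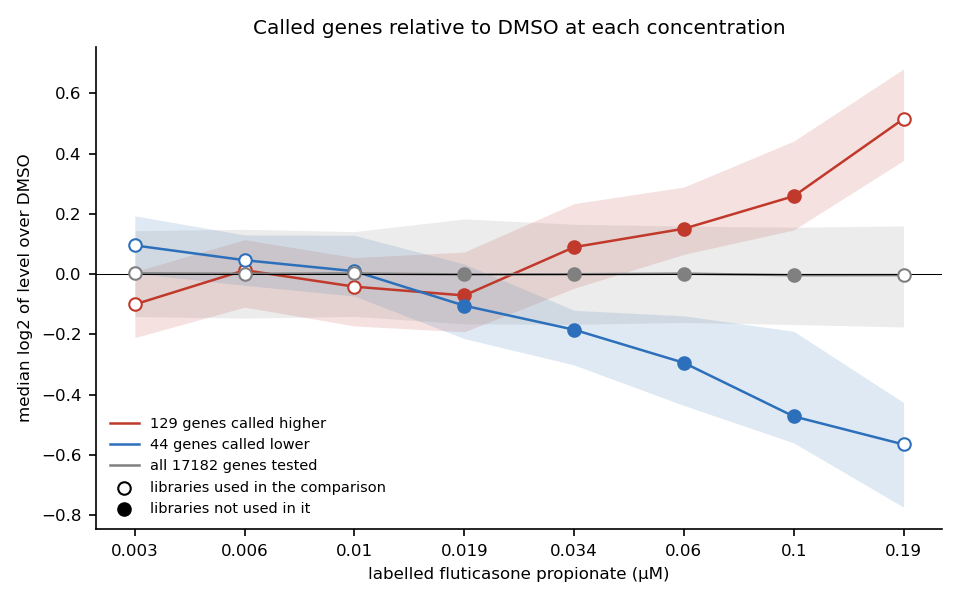
Median log2 ratio to DMSO (y axis) of the 129 genes called higher (red), the 44 called lower (blue) and all 17182 tested genes (grey) at each labelled concentration (x axis, in rising order and not to scale), with the range between the quartiles of the genes shaded. Open points mark concentrations used to choose the genes and filled points those that were not, where the red median reaches 0.26 and the blue −0.47.

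Dexamethasone, another synthetic glucocorticoid, was given in other libraries at other concentrations. Its values are set beside those above, and the compounds were not tested against each other. The nominal concentrations were 25.45455 µM against 0.008044, 0.025455 and 0.080436 µM, a wider span than for fluticasone propionate, so counts and medians are not on an equal footing. At 25 µM against its own 3 lowest concentrations, 0.008, 0.025 and 0.08 µM, 317 of 17016 genes were called (1.86%), 220 higher (1.29%) and 97 lower (0.57%). Of the 129 genes called higher with fluticasone propionate, 126 had a positive log2 fold change with dexamethasone and 76 were called, which is 58.9% of the fluticasone propionate genes and 34.5% of the dexamethasone ones. All 44 genes called lower had a negative one and 21 were called (47.7 and 21.6%). Over all 16619 genes measured with both compounds, 8170 were positive and 8449 negative with dexamethasone. The values with dexamethasone were 2.57 ± 0.09 for fkbp5, 1.07 ± 0.09 for glulb, 1.19 ± 0.11 for rps6kb1a, 1.39 ± 0.15 for klf9, 1.84 ± 0.14 for ddit4 and −1.07 ± 0.13 for cyp3a65. The muscle gene xirp2b had −0.03 ± 0.11 and ahr2 0.11 ± 0.12 there, neither of them called, and fabp6 −0.35 ± 0.11 (adjusted p = 0.106). Of the lists, 11 of 29 receptor targets were called higher with dexamethasone and 21 of 65 cell cycle genes lower, with median log2 fold changes of 0.46 and −0.85, and the same lists had 7 and 4 calls and medians of 0.36 and −0.54 with fluticasone propionate. Among 20 detoxification genes, dexamethasone had 7 called lower and 1 higher.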

How the data were processed

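Whole larvae were homogenised in pools, and QuantSeq 3′ libraries with molecular identifiers were made from total RNA, per the labels' protocols. The authors deposited a table of counts for each compound, with 36695 genes and rows for unassigned reads. In the submitters' processing notes the tools are STAR 2.7.10a, HTSeq 2.0.1, edgeR, bcl2fastq 2.20.0, MultiQC 1.12 and FastQC, with no roles. The genome build was not given in the sources used here, nor whether identifiers removed duplicates, so counts are of reads. Deposited log2 tables were not used.

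Rows for unassigned reads stayed out: 22.6 to 26.5% of reads were assigned to no gene and 11.1 to 12.2% aligned to several places in the 12 libraries. Low genes were removed by filterByExpr (minimum count 10, minimum total 15). Libraries were scaled by TMM, and the robust quasi-likelihood F-test of edgeR 4.0.16 (R 4.3.3) compared 0.19 µM with the equally weighted mean of the 3 low groups, in a fit of 4 group means. Adjustment was by Benjamini-Hochberg over all genes tested, with a threshold of 0.05. CPM values use the TMM scale of the 27 fluticasone propionate and DMSO libraries. The trend, DMSO and dexamethasone fits followed the same steps. Of 17174 LOC-numbered genes, 2292 took a symbol from RefSeq's annotation of fPimPro1.hap1.1, used for names alone.

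Named genes followed a rule: with a symbol, at least 5 CPM, a call and no overlap, the 12 smallest p and the 6 largest changes in each direction; all tested receptor targets; and up to 4 called members of every other list. Of genes without a symbol, 3 and 1 were skipped among rises by p and by size, and 2 and 1 among falls. Other genes, such as nr3c1, pcna, ckma and ahr2, were named after their values were seen. Members and lists (22 of genes and 16 of markers, 872 of 998 entries matched) were chosen with earlier results of these data known. Replicates differed by more than sampling noise (chi-square per degree of freedom 1.56 to 2.90 over 12 pairs). Fits were tested on simulated data, where false calls made up more than the nominal share of 0.05 in all fits but that against DMSO, so calls near the threshold are less certain than their adjusted p. Alternatives were DESeq2 1.42.0, other scalings, filters and covariates, and libraries left out. Figures were drawn with matplotlib 3.10.9.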

Additional observations from a re-analysis of the deposited data

Results flagged for a closer look

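In 4 of 77 named genes, 1 of the 9 low libraries stood apart from the others by Dixon's test, which flags about 1 in 20 groups by chance. For gstp1 the library was replicate B at 0.006 µM, with 563.7 CPM, against 460.2 CPM in the next highest. The same library had 107.9 CPM of dhdh.1, against 80.2 CPM in the next. Replicate C at 0.006 µM had 54.1 CPM of ddit4, against 38.2 CPM in the next, and replicate C at 0.003 µM had 45.0 CPM of zbtb16b, against 32.1 CPM. Both gstp1 and dhdh.1 were called lower at 0.19 µM and ddit4 higher, while zbtb16b was not called.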

How the results depend on the processing

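The count of 173 was 145 with upper quartile and 181 with RLE scaling, 177 with a filter of 5 CPM in 3 libraries, 166 in 2 groups, 162 and 170 with 24 and 27 libraries in the fit, 137 by DESeq2, 134 and 198 without the 0.01 and the 0.006 µM group, and 173 without APY78_ genes, an alternative chosen after seeing the data. It moved by over 1.5 times to 323 without the filter on low counts, where 27949 genes were tested, and to 69 without the 0.003 µM group. Single libraries left out gave 58 (replicate C at 0.19 µM) to 177. Beyond the number of genes tested or libraries used, the cause of these shifts was not tested.

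Differences among the low groups gave 9 calls without the filter and 0 with any library left out. The middle trend gave 49 without the filter, 28 by DESeq2, 1 without 0.1 µM, 16 with measured concentrations, 20 with the share of unassigned reads as a covariate, and 8 to 35 with single libraries left out. The low groups against DMSO gave 0 to 1 (1 without replicate C at 0.01 µM). Dexamethasone gave 414 without the filter, 268 by DESeq2 and 166 to 346 with single libraries left out (lowest without replicate B at 25 µM). The separate contrasts with 0.003, 0.006 and 0.01 µM gave 198, 124 and 143 without the filter, and 31 to 63, 15 to 41 and 17 to 41 with single libraries left out, each lowest without replicate C at 0.19 µM; their alternatives were added after seeing the data.

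Replicate letters did not pair the libraries of the main comparison. Deviations of same-letter libraries there had correlations of −0.14 to 0.19, with 1 of 18 over 0.1. Pairing by letter was not tested in the middle, DMSO and dexamethasone libraries. With replicate as a block the counts were 156 for the comparison, and 0 for differences among the low groups and against DMSO. They were 40 for the middle trend, 420 for dexamethasone, and 95, 41 and 65 for the separate contrasts. Without the block the comparison had 173, the middle trend 17 and dexamethasone 317. The separate contrasts then had 88, 37 and 54.

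Of 55 named called genes, 19 kept their call in all 26 alternatives, 36 lost it in at least 1 and none reversed. Among 22 receptor targets not called, 2 were called in some alternatives and 5 changed sign in some. With single libraries left out, log2 fold changes were −0.0746 to 0.504 for pdk2a, −0.132 to 0.217 for irs2b, −0.0436 to 0.0918 for per1b, −0.27 to 0.0532 for zbtb16b and −0.076 to 0.224 for sgk1, with a sign change for each without replicate B (pdk2a) or C (the other 4) at 0.19 µM. They were also 0.156 for zbtb16b with the share of unassigned reads as a covariate, and the log2 fold change of sgk1 was −0.00293 and −0.0551 without the 0.003 and 0.01 µM groups. Not every sign change is listed here. Over the 26 alternatives the sign changed in 6 for sgk1, 3 for zbtb16b, 2 for per1b and 1 each for pdk2a and irs2b. The filter left 17182 of 36695 genes, so rarer transcripts could not be tested at this depth.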

Other observations

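Some called genes outside the lists were singled out after their values were seen. The gene chac1, whose product breaks down glutathione, had 232, 188 and 251 CPM at 0.19 µM, against 90.9, 122 and 168 CPM as the lowest, median and highest low library (0.86 ± 0.11, adjusted p = 8.57e-05), and was also called rising at the middle concentrations (adjusted p = 0.000521). The transcription factor ddit3 had 43.9, 37.4 and 40.0 CPM, against 17.6, 23.3 and 27.4 CPM (0.84 ± 0.16), with a middle slope of 0.07 ± 0.31 that was not called. The amino acid transporter subunit slc3a2b, the partner of slc7a8a in mammals, rose by 0.76 ± 0.15. Each of the 3 had no overlap between the groups.

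The steroid 5-alpha-reductase gene srd5a2a, whose mammalian counterpart reduces testosterone and other steroids, had 34.5, 47.8 and 33.6 CPM at 0.19 µM, against 17.8, 23.2 and 29.6 CPM, a rise of 0.71 ± 0.17 with no overlap. The gene mgarpa, the second copy of mgarpb described above, rose by 0.49 ± 0.10, less than mgarpb, and the difference between the copies was not tested.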
